A study of Sus scrofa with 6 samples.

Results

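The genes followed here are 9 targets and partners of the transcriptional co-activator YAP and the TEAD transcription factors, namely CCN2, CCN1, NT5E, ANKRD1, AMOTL2, AXL, TEAD1, LATS2 and AJUBA, in the lung of pigs after extended partial hepatectomy (ePHx). They were chosen by name, as known targets and partners of YAP and TEAD, with earlier results of these data known. Probe sets could be tied to 6 of the 9, among 11748 genes in all, and AXL, LATS2 and AJUBA were not analysed here. In the array's annotation CCN2 (chr1:35133813-35137139) and AMOTL2 (chr13:83024710-83040145) lie on the minus strand of build Sscrofa10.2, NT5E is also on chromosome 1, CCN1 on 4, ANKRD1 on 14 and TEAD1 on 2, and a probe set summarises 21 to 28 probes along the transcript. Lung samples of 6 male German landrace pigs were hybridised to porcine gene arrays (Affymetrix), 24 h after resection of 70% of the liver. In the MSC-treated group (n = 3) the animals had received porcine bone marrow mesenchymal stem cells (MSC), differentiated into hepatocyte-like cells, through a central venous catheter. The control group (n = 3) had received the vehicle only, and these arrays hold no animal without resection, so that all comparisons are between animals with ePHx. Values are log2 signals after robust multi-array averaging (RMA), in which 1 unit is a doubling of the signal. Signals of different genes come from different probes and are not compared as levels.

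The Hippo pathway restrains growth and couples it to cell shape and matrix stiffness. Its kinases phosphorylate YAP and the related co-activator TAZ, which are then kept in the cytoplasm. When the kinases are inactive, YAP and TAZ enter the nucleus and bind TEAD factors on the promoters and enhancers of target genes. The best known targets are the secreted matricellular proteins CCN1 (CYR61) and CCN2 (connective tissue growth factor), and some targets, such as the angiomotin AMOTL2 and the kinase LATS2, feed back to inhibit YAP. In lung, YAP and TAZ are known for their part in epithelial repair and in the matrix production of fibroblasts.

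All arrays carried the signature of lung tissue, with surfactant protein gene SFTPC between 12.27 and 12.54 and the alveolar type 1 cell gene AGER between 9.89 and 10.17. The mean of the antigenomic background probe sets was between 3.88 and 4.24 on the 6 arrays, and pairs of arrays correlated with r from 0.963 to 0.989 across genes. The names of 3 arrays, control replicates 1 and 3 and MSC-treated replicate 2, carried the letters b-T, whose meaning is not given in the sources used here. The study's methods mention a batch effect in the lung from the processing of samples, without naming the arrays, and whether the letters mark that batch is not stated. As the letters are unevenly spread over the groups, the treatment differences of the target genes are given without and with them as a covariate. The samples are pieces of tissue, in which fewer cells of a type and less RNA per cell cannot be told apart.

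For none of the 6 measured target genes was a treatment difference resolved beyond the spread between arrays. In some of them this spread was wide, so that large differences remain possible. The study's thresholds ask for a p under 0.05, unadjusted, together with a log2 fold change of 0.5 or more in either direction. At these limma called 0 of 6, while 1.86% of all 11748 genes were called, 0.655% higher and 1.21% lower. At the unadjusted p alone limma called 0 of 6 beside 2.72% of all genes. The methods' t-test also called 0 of 6 at its p alone, beside 341 of all 11748 genes. In 5 of the 6 genes the difference was positive, as in 49.4% of all genes, and in NT5E it was negative. The median log2 fold change of the 6 genes was 0.31, against -0.0031 over all genes, and it was 0.16 with the letters as a covariate. Leaving out 1 array moved it to between 0.0205 without MSC-treated replicate 3 and 0.52 without MSC-treated replicate 2, with 0.12 without control replicate 1. The control and MSC-treated arrays overlapped in each of the 6 genes, whereas they did not overlap in 7.41% of all genes. With 3 arrays a group, the exact two-sided permutation test cannot go below p = 0.1.

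**Figure D1:**
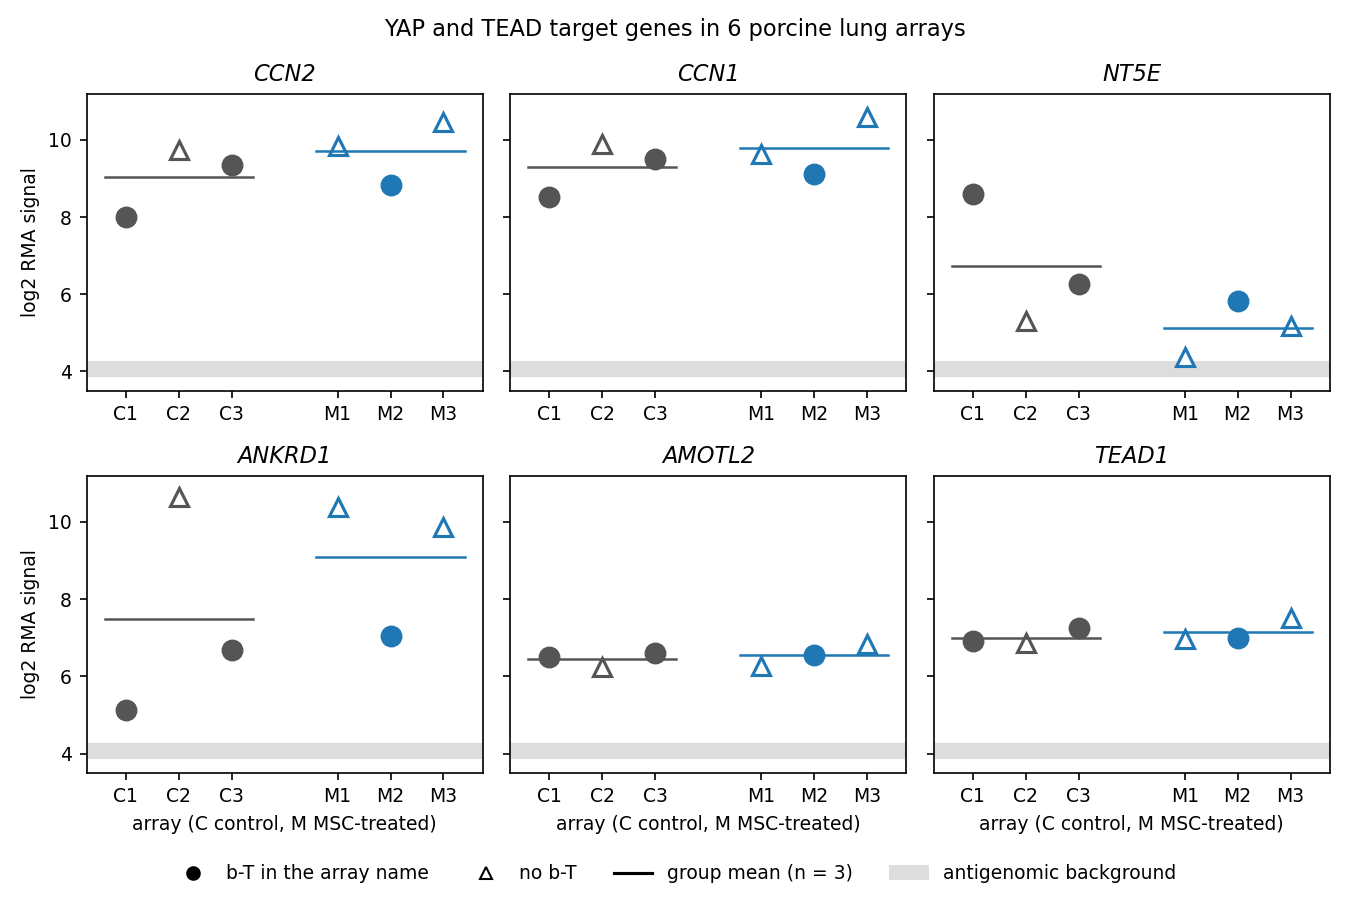
Log2 RMA signal of each measured target gene on the 3 control (C1 to C3) and 3 MSC-treated arrays (M1 to M3). Lines are group means, filled circles are arrays whose name holds the letters b-T, open triangles are the other arrays, and the grey band is the range of the mean antigenomic background from 3.88 to 4.24. In ANKRD1 the 3 circles lie between 5.14 and 7.05 and the 3 triangles between 9.86 and 10.63.

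CCN2 is the matricellular protein that promotes matrix production by fibroblasts, and it is a direct target of YAP and TEAD. Its log2 signal was 8.01, 9.72 and 9.36 in control replicates 1 to 3 and 9.85, 8.82 and 10.45 in MSC-treated replicates 1 to 3. Control replicate 1 was the lowest array and MSC-treated replicate 3 the highest, while MSC-treated replicate 2 lay below control replicates 2 and 3. The group means were 9.03 ± 0.90 in controls and 9.71 ± 0.83 after MSC treatment (SD, n = 3 each). The log2 fold change was 0.68 ± 0.53 (SE) with a 95% interval from -0.55 to 1.90 (limma p = 0.238, adjusted p = 1), and the exact permutation test gave p = 0.4. The difference thus lay within the spread between arrays, and without control replicate 1 it was 0.16.

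CCN1, the closely related matricellular protein that binds integrins and is induced early after growth stimuli, followed a similar order of arrays. It measured 8.52, 9.90 and 9.50 in the control animals and 9.64, 9.12 and 10.58 in the MSC-treated animals. As for CCN2, the lowest array was control replicate 1, the highest was MSC-treated replicate 3, and the groups overlapped. Group means were 9.31 ± 0.71 and 9.78 ± 0.74 (SD), a log2 fold change of 0.47 ± 0.45 (SE) with a 95% interval from -0.57 to 1.52 (limma p = 0.326, adjusted p = 1; exact permutation p = 0.5). Without control replicate 1 the difference was 0.079.

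ANKRD1, cardiac ankyrin repeat protein, is a stretch-induced co-factor of transcription and sarcomere protein best known from muscle, and is widely used as a readout of YAP. It varied the most of the 6 genes, by 5.50 log2 units between the lowest and the highest array. The control animals had signals of 5.14, 10.63 and 6.69, and the MSC-treated animals 10.38, 7.05 and 9.86. Control replicate 2 was the highest of all arrays, and the controls spanned the whole range of the treated animals. From means of 7.49 ± 2.83 and 9.10 ± 1.79 (SD), the log2 fold change was 1.61 ± 1.4 (SE) with a 95% interval from -1.64 to 4.87 (limma p = 0.285, adjusted p = 1; exact permutation p = 0.5). ANKRD1 ranked 6 among the 11748 genes by size of this difference, yet its standard error was nearly as large as the difference itself. Single arrays decided the value, which was 0.44 without control replicate 1 and 3.18 without control replicate 2, where it passed the thresholds in limma beside 3.99% of all genes.

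NT5E encodes CD73, the cell surface enzyme that turns extracellular AMP into adenosine. In the control animals its signal was 8.59, 5.30 and 6.27, and after MSC treatment 4.37, 5.82 and 5.19. Control replicate 1 stood far above all other arrays, MSC-treated replicate 1 was close to the background, and the remaining arrays of both groups overlapped. With means of 6.72 ± 1.69 and 5.13 ± 0.73 (SD), the log2 fold change was -1.59 ± 0.78 (SE) with a 95% interval from -3.41 to 0.22 (limma p = 0.0766, adjusted p = 1; exact permutation p = 0.2), rank 7 by size. A separate probe set of the gene gave a log2 fold change of -1.38 and likewise placed control replicate 1 highest, at 7.72, and MSC-treated replicate 1 lowest, at 4.30. The value was -0.66 without control replicate 1 and -2.31 without control replicate 2, where it passed the thresholds in limma as well.

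Control replicate 1, the array that was highest for NT5E and lowest for CCN2, CCN1 and ANKRD1, also differed in markers of other cells. Albumin (ALB) measured 7.65 there and between 3.70 and 5.40 on the other arrays, and the mean log2 signal of the 4 measured of 5 hepatocyte markers ranged from 6.38 to 7.81 in controls and from 6.20 to 6.78 after MSC treatment. Over the 5 measured of 6 neutrophil markers the mean was between 7.95 and 9.73 in controls and between 7.59 and 8.0 after MSC treatment. All 5 had a negative log2 fold change, whereas 49.4% of all genes had a positive one, and 1 passed the thresholds, beside 1.21% of all genes that were lower. With the letters as a covariate 1 of the 5 passed as well, and the median log2 fold change was -0.90 against -0.79 without it. Their part in the NT5E values was not tested.

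AMOTL2, an angiomotin-like junction protein that binds YAP and is also its target, hardly varied. The control animals measured 6.50, 6.23 and 6.61 and the MSC-treated animals 6.26, 6.56 and 6.84. The arrays of both groups were intermixed. Group means of 6.45 ± 0.20 and 6.56 ± 0.29 (SD) differed by 0.11 ± 0.20 (SE) with a 95% interval from -0.36 to 0.58 (limma p = 0.608, adjusted p = 1; exact permutation p = 0.7).

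TEAD1, the DNA-binding partner through which YAP reaches these genes, was as stable. Signals were 6.91, 6.86 and 7.25 in controls and 6.96, 7.00 and 7.52 in MSC-treated animals. Replicate 3 was the highest of each group, and the groups overlapped. The means of 7.01 ± 0.21 and 7.16 ± 0.31 (SD) gave a log2 fold change of 0.15 ± 0.21 (SE) with a 95% interval from -0.34 to 0.64 (limma p = 0.491, adjusted p = 1; exact permutation p = 0.5). The intervals of AMOTL2 and TEAD1 thus span less than a doubling in either direction, whereas those of the other 4 genes extend beyond it.

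With the letters b-T as a covariate the treatment differences of the 4 variable genes became smaller, and again 0 of 6 genes passed the thresholds, beside 2.89% of all genes (1.66% higher and 1.23% lower), or the unadjusted p alone, beside 4.15%. The log2 fold change was 0.28 ± 0.37 (SE) for CCN2, 0.16 ± 0.34 for CCN1 and -1.06 ± 0.60 for NT5E. For ANKRD1 it was 0.31 ± 0.50, with a 95% interval narrowed to between -0.84 and 1.47. Within the arrays with the letters ANKRD1 was higher after MSC treatment by 1.14, and within those without them the difference was -0.51, each resting on a single array in 1 of the groups. CCN2 differed by 0.13 and 0.43, CCN1 by 0.11 and 0.21 and NT5E by -1.61 and -0.52 within arrays with and without the letters.

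**Figure D2:**
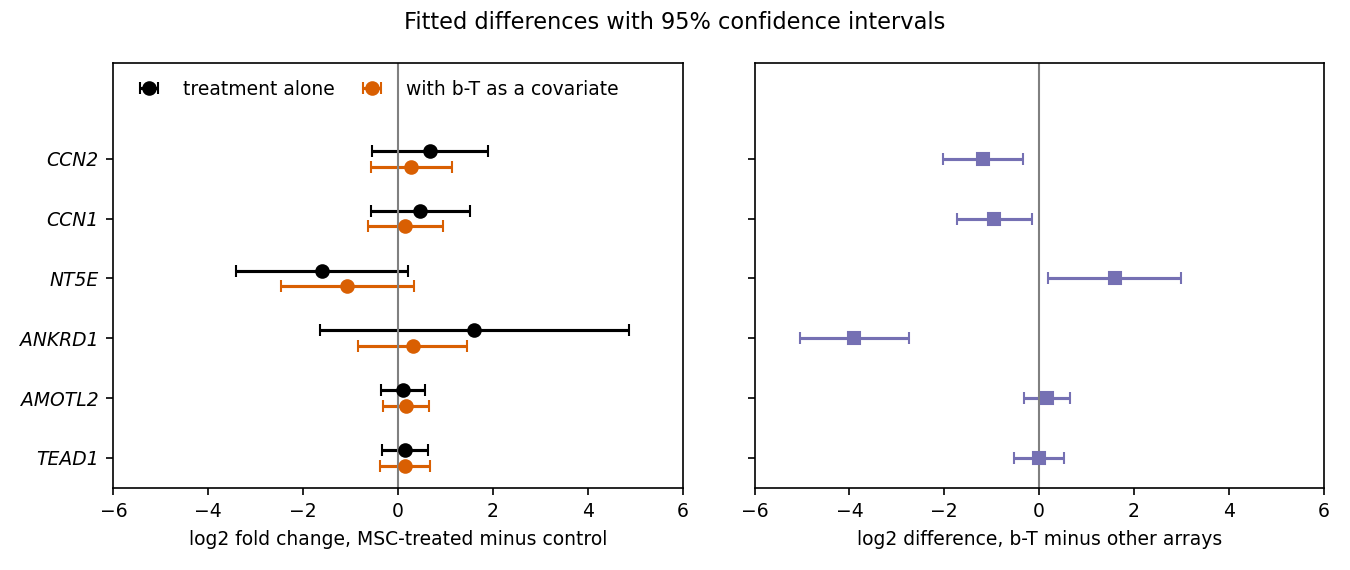
Fitted log2 differences (points) with 95% confidence intervals (bars) for the 6 measured target genes. Left, MSC-treated minus control from the model of treatment alone (black) and with the letters b-T as a covariate (orange), where every interval crosses 0. Right, arrays with minus arrays without the letters, from the model with treatment, where the intervals of CCN2, CCN1, NT5E and ANKRD1 do not reach 0.

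Of the 6 genes, 4 separated by the letters in the array names rather than by treatment. This comparison was added after the values had been seen. Fitted beside treatment, the letters moved CCN2, CCN1, ANKRD1 and NT5E past the thresholds, that is 4 of 6 genes beside 13.8% of all genes. Of the 4, 3 were lower on arrays with the letters, beside 5.25% of all genes, and 1 was higher, beside 8.55%, and at the unadjusted p alone the share was 4 of 6 beside 16.9%. The 3 arrays with the letters did not overlap with the 3 without them in these 4 genes, beside 23.1% of all genes (exact permutation p = 0.1 each, the smallest possible). For AMOTL2 the difference was 0.17 (exact permutation p = 0.6) and for TEAD1 it was -0.01 (exact permutation p = 0.9).

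ANKRD1 had the largest such difference of all 11748 genes in this fit. Its mean was 6.29 ± 1.02 on arrays with the letters and 10.29 ± 0.39 on the others (SD). The fitted difference was -3.90 ± 0.50 (SE) with a 95% interval from -5.05 to -2.74, a 14.9-fold lower signal (limma, adjusted p = 0.0246). At an adjusted p under 0.05 limma called 0.97% of all genes, that is 114. This count depended on single arrays, as it was 14 without control replicate 1, 1356 without MSC-treated replicate 3 and 0 without any one of the other 4 arrays. The size ranged from -4.72 without MSC-treated replicate 2 to -3.07 without control replicate 2. The adjusted p was 0.0281 without control replicate 1 and 0.0146 without MSC-treated replicate 3, but 0.28, 0.112, 0.117 and 0.267 in the fits that left out control replicates 2 and 3 and MSC-treated replicates 1 and 2, in this order.

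CCN2 was lower by 1.19 ± 0.37 (SE) log2 units on the arrays with the letters, at means of 8.73 ± 0.68 against 10.01 ± 0.39 (limma, adjusted p = 0.166). CCN1 was lower by 0.94 ± 0.34, at 9.04 ± 0.49 against 10.04 ± 0.49 (limma, adjusted p = 0.219). NT5E went the other way and was higher by 1.59 ± 0.60, at 6.90 ± 1.49 against 4.95 ± 0.51 (limma, adjusted p = 0.239). None of these 3 passed the adjustment over all genes. CCN2 also missed the unadjusted threshold in limma without control replicate 2 or MSC-treated replicate 2, at differences of -1.33 and -1.04. CCN1 missed it without control replicate 1, control replicate 2 or MSC-treated replicate 2, at differences of -0.74, -0.99 and -0.90, and NT5E missed it without control replicate 2 or MSC-treated replicate 1, at 1.05 and 1.49.

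**Figure D3:**
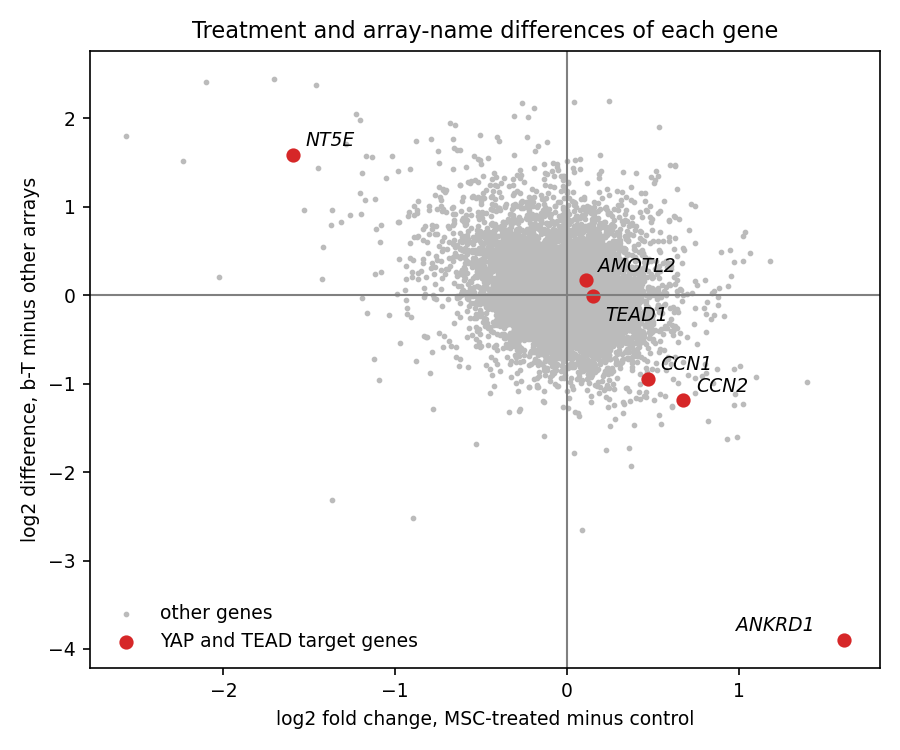
Each point is 1 gene, with its log2 fold change by treatment alone on the horizontal axis and, from the model with treatment, its log2 difference between arrays with and without the letters b-T on the vertical axis. Both axes use the same 6 arrays, and ANKRD1, at 1.61 and -3.90, lies farthest down of all 11748 genes.

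Mean signals over lists of muscle and fibroblast markers overlapped between arrays with and without the letters, although some single markers did not. Over the 4 measured of 7 cardiac muscle markers, the mean log2 signal was between 5.14 and 5.36 on arrays with the letters. On the others it was between 5.12 and 5.34. The atrial genes MYL7 (3.56 to 4.25) and NPPA (4.16 to 4.47) lay near the background, while MYH6 ranged from 4.58 to 5.14 and ACTC1 from 7.50 to 7.91. MYL7 was higher with the letters (0.33) without overlap. The 4 measured of 6 smooth muscle markers had means from 9.42 to 9.73 with the letters and from 9.49 to 9.99 without them, and the 7 fibroblast markers from 9.94 to 10.22 and from 9.88 to 10.18. Within these lists TAGLN (-0.64), COL1A2 (-0.62) and COL3A1 (-0.79) were lower with the letters past the thresholds, beside 5.25% of all genes. As in ANKRD1, their arrays with and without the letters did not overlap, beside 23.1% of all genes. No cardiac marker passed. The fibroblast markers PDGFRB (0.43) and DCN (0.45) were higher with the letters without overlap, but did not pass. Means of the 4 measured of 7 endothelial markers did separate, from 9.91 to 10.04 with the letters against 9.05 to 9.54. VWF (1.09) and TEK (1.48), 2 of the 4, passed the thresholds as higher with the letters, beside 8.55% of all genes. PECAM1 (0.18) and KDR (0.28) overlapped and did not pass. Means of the 6 alveolar type 1 markers separated narrowly the other way, from 9.23 to 9.78 with the letters against 9.79 to 9.86. Of these 6, 1 passed the thresholds, PDPN, which was lower with the letters (-1.19), beside 5.25% of all genes. AGER (-0.21) was lower without overlap but did not pass. AQP5 (-0.30), RTKN2 (-0.11) and HOPX (-0.0043) overlapped, as did CAV1, which went the other way (0.59). Neutrophil markers ranged from 7.76 to 9.73 with the letters and from 7.59 to 8.15 without them. The part of these cell types in the differences of the 4 target genes was not tested.

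Among all 11747 other genes, CCN1 was the one whose centred signals lay nearest to those of CCN2, with a root mean square difference of 0.22 log2 units over the 6 arrays. On single arrays CCN2 minus CCN1 ran from -0.51 to 0.21, a small range beside the 2.44 and 2.06 log2 units that CCN2 and CCN1 covered. Next came the MIR214 locus and SERPINH1, the collagen chaperone, at 0.28 each, and then IGSF5 and COL12A1, a fibril-associated collagen, at 0.34 each. Like CCN2, each of these genes, CCN1 included, was lower on the arrays with the letters b-T, without overlap. Over all genes 23.1% did not overlap, in either direction. As these genes were picked for likeness to CCN2 on the same arrays, sharing its split largely follows from the choice. SERPINH1 lay between 9.39 and 10.01 with the letters and between 10.50 and 11.05 without them. For COL12A1 the ranges were 8.52 to 8.81 and 9.70 to 10.05. Whether the likeness of these genes to CCN2 goes beyond the split by the letters was not tested. The other target genes were far down this order, TEAD1 at rank 1452, AMOTL2 at 5195, ANKRD1 at 11670 and NT5E at 11741. This is a description over 6 arrays. ANKRD1 stood far from CCN2 by this measure although both were lowest in control replicate 1, since ANKRD1 varied over a wider range, and NT5E, highest in that array, was nearly the least alike of all genes.

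Few of the remaining genes of the pathway passed the thresholds by treatment. Of 79 further genes in lists of YAP and TAZ targets, Hippo kinases, transcription factors, junction regulators, CCN proteins, SRF targets, adenosine metabolism and TAM receptors, 48 were measured, and 0 rose, 1 fell and 47 did not pass the thresholds. A single gene of 48 is close to the share of 1.86% called over all genes. Their median log2 fold change was 0.0585, against -0.0031 over all genes. None of the 8 other YAP and TAZ targets and none of the 10 Hippo kinases and scaffolds passed, at medians of 0.0032 and 0.041 (0.10 and -0.10 with the letters as a covariate), and the only one of the 48 with an unadjusted p under 0.05 in limma was the gene that fell. The 9 measured genes of the list of angiomotins, LIM proteins and polarity regulators, AMOTL2 among them, had log2 fold changes between 0.05 and 0.27 (median 0.14, and 0.15 with the covariate), and none passed.

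**Figure D4:**
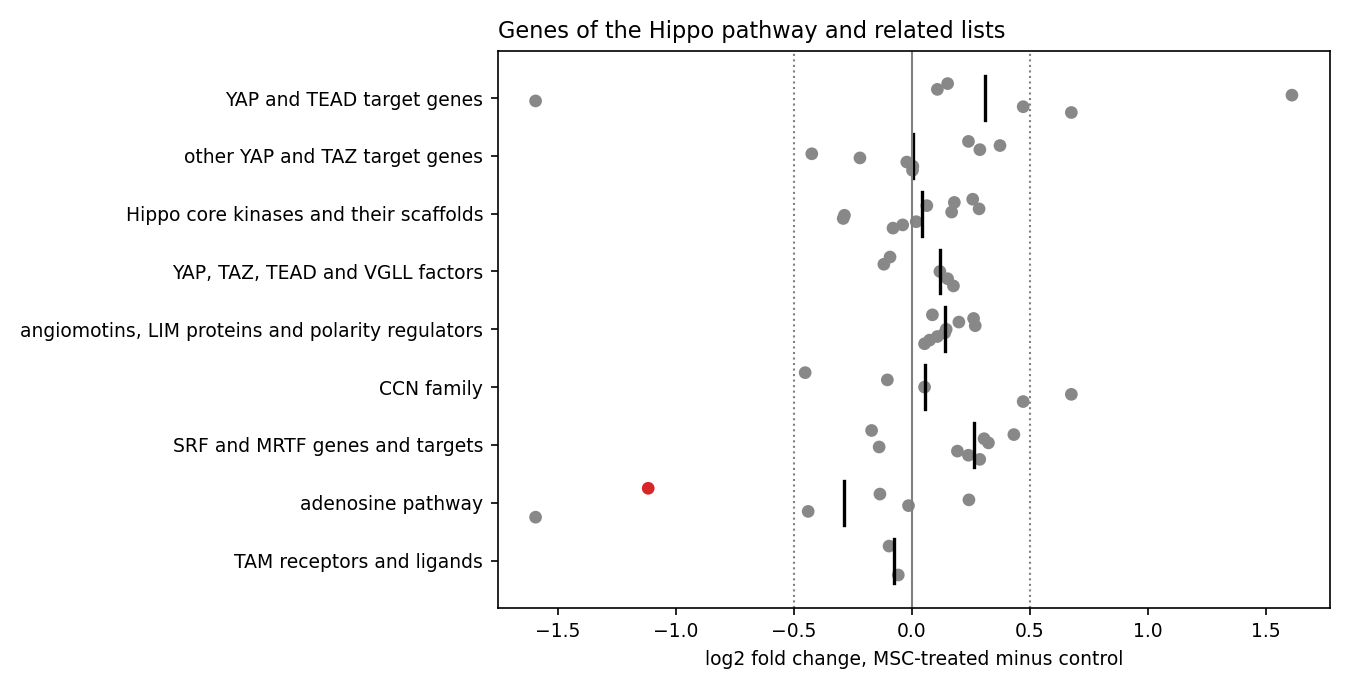
Log2 fold change, MSC-treated minus control, of each measured gene in the 9 lists. Black bars are list medians, dotted lines mark -0.5 and 0.5, and the gene in red, SLC29A1 at -1.12, passed both thresholds. A gene in several lists is drawn in each, such as NT5E at -1.59 in the target and adenosine lists.

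The co-activators, kinases and DNA-binding partners around these targets did not pass the thresholds either. WWTR1, which encodes TAZ, had means of 8.03 ± 0.23 in controls and 8.20 ± 0.18 after MSC treatment (SD), which is 0.18 ± 0.19 (SE) higher on the log2 scale (exact permutation p = 0.4). LATS1, the kinase that phosphorylates YAP and TAZ, measured 8.88 ± 0.30 and 8.90 ± 0.29, a difference of 0.02 ± 0.22 (exact permutation p = 1). TEAD3 and TEAD4 differed by 0.12 ± 0.23 and -0.12 ± 0.27 (exact permutation p = 0.8 each). Of the other CCN genes, CCN3 differed by 0.05 ± 0.23, CCN5 by -0.10 ± 0.19 and CCN6 by -0.45 ± 0.24 (exact permutation p = 0.9, p = 0.7 and p = 0.2). With the letters as a covariate the differences were 0.23 for WWTR1, -0.13 for LATS1, 0.034 for TEAD3, -0.20 for TEAD4, 0.17 for CCN3, -0.19 for CCN5 and -0.39 for CCN6, so that the sign of LATS1 turned, and again none passed. YAP1, TEAD2 and CCN4 were not analysed here, since no probe set was tied to them.

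SLC29A1, the equilibrative transporter that carries adenosine across the plasma membrane, was that gene. Its signal was 8.56, 7.26 and 8.0 in controls and 6.08, 7.59 and 6.79 after MSC treatment. The groups overlapped, as MSC-treated replicate 2 lay above control replicate 2. It fell by 1.12 ± 0.44 (SE) log2 units, from 7.94 ± 0.65 to 6.82 ± 0.76 (SD), with limma p = 0.0349 and adjusted p = 1, while the exact permutation test gave p = 0.2. With the letters as a covariate the difference was -0.76 ± 0.25 (limma, adjusted p = 0.989), and it was -0.68 within arrays with the letters and -0.83 within those without. It did not pass when control replicate 1 or 3 or MSC-treated replicate 1 or 3 was left out, at -0.81, -1.09, -0.75 and -1.10, and without control replicate 2 or MSC-treated replicate 2 it did, at -1.46 and -1.50. The adenosine list, in which NT5E and SLC29A1 stand side by side, had a median of -0.29 over its 6 measured genes, and of -0.12 with the letters as a covariate. ENTPD1 (CD39), which makes the AMP that CD73 uses, differed by -0.44 (exact permutation p = 0.5), and by -0.20 with the letters as a covariate.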

How the data were processed

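The deposited values are log2 signals, made by the authors from 6 lung arrays (Affymetrix Porcine Gene 1.0 ST) by RMA, per the submitters' processing notes in Expression Console 1.4. ComBat batch correction and a Brainarray annotation, which the methods describe, are not part of these values. Array names, and with them the letters b-T, were tied to samples by the identity of all 27558 values in both deposited tables. The deposited column of other values, the number of probes of a probe set, served as annotation. RMA equalises distributions, so shifts common to most genes are not seen, and precision is limited by there being 6 arrays.

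Of 19124 main probe sets, 12910 were tied to 1 gene, 214 had several symbols and 6000 had no gene. Ties were made by accession, gene number, Ensembl gene or symbol, through the RefSeq gene table and a list of gene names. For 993 of the tied probe sets the symbol of the file was kept without a match. The probe set with the highest mean stood for a gene. In the file CCN1 is named CYR61, ANKRD1 CARP, TEAD1 TEF1 and NT5E LOC100157995.

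Groups were compared with limma 3.58.1 (lmFit, eBayes) in R 4.3.3, tested on simulated data first, with Benjamini-Hochberg adjustment over 11748 genes, and single genes also with exact two-sided permutation tests. Members and lists were chosen with earlier results of these data known. Named are all members, list genes past the thresholds, TAZ, TEAD, LATS and CCN genes whatever their values, and the 5 genes nearest to CCN2; markers, ENTPD1 and genes set apart by the letters were named after their values were seen. Alternatives were the letters as a covariate, scaling, a filter, probe set choice, trended and robust moderation, the methods' t-test, a block for the replicate number, and omission of each array in turn.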

Additional observations from a re-analysis of the deposited data

How the results depend on the processing

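Over 17 alternatives CCN2 and CCN1 stayed positive (0.13 to 1.12 and 0.07 to 0.80) and NT5E negative (-2.31 to -0.52). ANKRD1 turned to -0.51 within arrays without b-T, AMOTL2 to -0.0012 without control replicate 2 and -0.037 without MSC-treated replicate 3 (up to 0.26 when other arrays were left out), and TEAD1 to -0.029 without MSC-treated replicate 3 (up to 0.27) and -0.084 within b-T arrays. The causes were not tested. The count of members past the thresholds was 0 in every setting except without control replicate 2, where it was 2 (NT5E and ANKRD1), so that leaving out 1 array gave 0 to 2. Over all genes 219 passed, 77 higher and 142 lower, none at an adjusted p under 0.05. With b-T as a covariate 339 passed (195 higher, 144 lower), the methods' t-test with a fold change over 2.0 gave 2 (341 at its p alone, 0 after Benjamini-Hochberg), and leaving out 1 array gave 182 to 608, with 469 without control replicate 2 and 608 without MSC-treated replicate 2.

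Whether the replicate numbers pair the animals is not given. Deviations of same-numbered arrays from their group means correlated at -0.41, -0.49 and 0.06. These values cannot decide it, since each number joins an array with the letters b-T to one without them. The highest correlation, 0.61, was between control replicate 2 and MSC-treated replicate 1, both without the letters. With the number as a replicate block 166 genes (65 higher, 101 lower) and 0 members passed. NT5E signals close to the antigenomic background limit what its lowest arrays can show.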

Other observations

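Of the 48 further pathway genes, 10 passed the thresholds between arrays with and without the letters b-T, 6 higher and 4 lower with the letters, beside 13.8% of all genes. ADORA3, an adenosine receptor, was higher by 0.75 log2 units on arrays with the letters, ENTPD1 by 0.71 and SLC29A1 by 1.09, so that with NT5E 4 of the 6 measured genes of the adenosine list passed as higher there, beside 8.55% of all genes. The other two, ADORA1 and ADORA2A, did not pass, at -0.050 and -0.14. CRIM1, TAOK3 and VGLL3 were the other genes that were higher. Among those that were lower were TGFB2, a ligand of the TGF-beta family, and TAGLN, a smooth muscle actin-binding protein, together with CCDC80 and FRMD6. These genes were named after their values were seen, and what the letters stand for is not given in the sources used here.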
